A study of Mus musculus with 39 samples.

Results

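The genes described here encode parts of the sperm tail. A list of 37 genes was given: fibrous sheath, outer dense fibre and mitochondrial capsule, axoneme, and sperm calcium channel genes. Members were found by symbol among the probe sets that the array's annotation ties to a single gene, and where a gene had several such probe sets the brightest over all arrays was used. In this way 36 of the 37 were found among 22180 genes. Ccdc39 lies only on a probe set shared with a second gene and was not analysed here. All 36 passed the filter on dim genes, a mean log2 intensity above 4.62 in at least 1 of the 8 groups. They were divided by role into 7 fibrous sheath genes, 5 genes of the outer dense fibres and mitochondrial capsule, 20 axoneme genes and 4 channel genes. Oaz3, which encodes an antizyme, was counted in the dense fibre and capsule class.

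The study measured RNA of whole mouse testes on 39 arrays. The lines combine floxed Prkar1a, which encodes a regulatory subunit of protein kinase A (PKA), with a Cre transgene. The prKO genotype is Sf1:Cre with Prkar1afl/fl, srKO is Amh:Cre with Prkar1afl/fl, lrKO is Cyp11a1:Cre with Prkar1afl/fl, and wild-type (WT) mice are littermates. At 2 months there were 3 prKO, 4 srKO, 4 lrKO and 8 WT arrays, and at 2 weeks 4 prKO, 4 srKO, 4 lrKO and 8 WT arrays. The labels call the arrays of a group biological replicates. As background, Sf1 is active in somatic progenitors of the gonad and in the adrenal, Amh in Sertoli cells and Cyp11a1 in steroidogenic cells such as Leydig cells. The flagellum genes are transcribed mainly in germ cells, which these promoters are not known to target. The label on RNA extraction names another gland, the adrenal, while title, source and tissue labels all name testis.

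The sperm flagellum is built around an axoneme of doublet microtubules, dynein motors, a central apparatus and regulatory complexes. In mammals it is wrapped by outer dense fibres and, along the principal piece, by a fibrous sheath whose anchoring proteins hold PKA. Motility of mature sperm depends on calcium entry through CatSper and on cAMP acting through PKA. Many axoneme genes are first transcribed in meiotic spermatocytes, whereas most fibrous sheath and capsule genes are transcribed in spermatids after meiosis. The first wave of mouse spermatogenesis has reached meiosis at 2 weeks and is complete at 2 months.

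All values below are log2 intensities, or differences between them, from the authors' normalized table. Differences were tested with limma over 19007 genes, and a gene is called where its two-sided adjusted p is under 0.05. Since whole testes were used, fewer cells of a type and less RNA per cell cannot be told apart. Where a gene is said not to overlap between groups, the share of all genes separated so was not counted. Array medians were between 5.81 and 5.96 at 2 months and between 5.96 and 6.02 at 2 weeks. Arrays of 1 group correlated least, at 0.949, among the 3 prKO arrays of 2 months and, at 0.951, among the WT arrays of 2 weeks. The prKO array of replicate 1 at 2 months held Adam7, an epididymis gene, at 11.7, against 4.25 and 4.47 in the other prKO arrays. No other array of either age exceeded 7.08.

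The targeted gene was checked first. At 2 weeks Prkar1a was at 8.04, 8.28, 8.34 and 8.17 in prKO testes, at 8.48, 8.36, 8.52 and 8.64 in srKO testes and between 8.84 and 9.14 with a median of 8.97 in WT testes. All 8 arrays of both lines lay below all WT arrays. The difference from WT was −0.78 ± 0.07 (SE) in prKO testes (adjusted p = 4.5e-07) and −0.48 in srKO testes (adjusted p = 0.0022), and it was 0.05 in lrKO testes (adjusted p = 0.84). At 2 months Prkar1a was at 8.66, 8.63 and 8.36 in prKO testes, against 8.61 to 9.0 with a median of 8.88 in WT testes. That is a difference of −0.30 ± 0.09 (adjusted p = 0.0078), and without prKO replicate 3 it is −0.20 with an adjusted p of 0.097. This prKO call is also lost with WT replicates 1 to 4 alone (−0.175, adjusted p = 0.12). With the replicate number as a block the difference is −0.173 (adjusted p = 0.19), which is not a separate check. Numbers 5 to 8 occur only in WT, so that fit too rests on WT replicates 1 to 4. WT replicates 1 to 4 lay between 8.61 and 8.81, and WT replicates 5 to 8 between 8.95 and 9.0. Amh:Cre acts in Sertoli cells and whole testes were measured, so the srKO label need not imply lower Prkar1a. In the arrays labelled srKO of 2 months Prkar1a was not lower than in WT testes. It was at 8.98, 9.10, 9.18 and 9.08, which is 0.24 ± 0.08 above WT (adjusted p = 0.03). The difference is 0.12 (adjusted p = 0.32) with WT replicates 5 to 8 alone and 0.21 (adjusted p = 0.091) with each array centred on its median. The call is also lost on leaving out WT replicate 3 or 4 or srKO replicate 2, 3 or 4 (0.21 to 0.24, adjusted p between 0.05 and 0.096). In lrKO testes the difference at 2 months was 0.04 (adjusted p = 0.94). Whether the probe set covers the floxed stretch is not given in the sources used here.

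In WT testes nearly all flagellum genes were far higher at 2 months than at 2 weeks. Of 36 genes 34 were called higher and 1 lower, against 26.7% of all genes called higher and 55.0% called lower. The median difference was 3.40 over the flagellum genes and −0.24 over all genes. Smcp, a cysteine-rich protein of the mitochondrial capsule, lay between 12.33 and 12.66 with a median of 12.52 at 2 months, against 4.39 to 4.77 with a median of 4.52 at 2 weeks (adjusted p = 6.7e-40). Its 2-week mean was under the filter on dim genes, with 3 of 8 WT arrays above it, so it was at least 234-fold higher at 2 months, with 2-week values held at the filter. Oaz3, the spermatid antizyme, was 108-fold higher at 2 months. Akap4, the main PKA anchor of the fibrous sheath, was 96.5-fold higher, with 11.90 to 12.08 and a median of 12 at 2 months, against 5.07 to 5.67 and a median of 5.43 at 2 weeks. Its partner Akap3 was higher by 6.29 and the ropporin Ropn1 by 6.05. The channel pore subunits Catsper1 and Catsper3 were also under the filter at 2 weeks, and were at least 37.7-fold and 21.8-fold higher at 2 months. Every WT array of 2 months lay above every WT array of 2 weeks for each of the 34 genes. The share of all genes separated in this way was not counted. The smallest rise among the 34 genes, 5.19-fold, was that of Spa17, a protein with a PKA docking fold.

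By class, the median rise with age in WT testes was 5.34 for the fibrous sheath (7 of 7 called), 4.38 for the channel (4 of 4 called), 3.34 for the axoneme (19 of 20 called) and 3.17 for the dense fibre and capsule class (4 of 5 called higher). Both genes that did not rise have a caveat in their probe sets. Spag6, a central apparatus protein, was at a mean of 5.35 at 2 months and 5.48 at 2 weeks (−0.13, adjusted p = 0.11). On its second, dimmer probe set it was called higher with age, from a mean of 4.34 to 5.15 (0.81, adjusted p = 3.4e-11). The near copy of Spag6, Spag6l, was between 10.29 and 10.62 at 2 months and between 5.26 and 8.21 at 2 weeks in WT testes. Odf1, a dense fibre protein, was called lower by 0.38 with age on its brighter probe set, but its second probe set lay between 11.30 and 11.67 at 2 months and between 5.01 and 5.53 at 2 weeks. The probe sets gave differences of opposite sign in every comparison that called Odf1, so its calls below are given with both.

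Axoneme genes of ciliated cells are known targets of RFX factors, and postmeiotic spermatid genes of the cAMP-response factor CREM, so the promoters were searched for their short core motifs. Promoter windows were taken from RefSeq on GRCm38.p6, from 250 bases before to 50 bases after the annotated start, and 32 of the 37 listed genes had one. The 5 sequences are shown to compare 3 members whose window holds an RFX half-site with 2 spermatid members whose window holds none. Capitals mark GTTGCC or its reverse complement GGCAAC (the RFX half-site) and TGACG (the CRE half-site), each searched on both strands.
Spag16 (chr1:69826720-69827019, + strand): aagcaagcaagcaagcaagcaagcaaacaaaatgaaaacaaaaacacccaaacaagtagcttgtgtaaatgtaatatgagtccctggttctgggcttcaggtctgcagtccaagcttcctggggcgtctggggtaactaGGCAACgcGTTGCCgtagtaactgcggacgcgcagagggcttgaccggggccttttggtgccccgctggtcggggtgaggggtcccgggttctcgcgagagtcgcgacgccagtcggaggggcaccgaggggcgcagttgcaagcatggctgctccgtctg
Ropn1l (chr15:31453640-31453939, - strand): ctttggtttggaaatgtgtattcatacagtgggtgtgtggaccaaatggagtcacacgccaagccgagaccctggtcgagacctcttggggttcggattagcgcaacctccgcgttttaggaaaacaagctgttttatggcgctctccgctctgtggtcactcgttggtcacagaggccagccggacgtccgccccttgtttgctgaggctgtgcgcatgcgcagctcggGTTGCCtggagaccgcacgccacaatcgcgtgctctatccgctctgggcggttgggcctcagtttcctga
Tekt1 (chr11:72361833-72362132, - strand): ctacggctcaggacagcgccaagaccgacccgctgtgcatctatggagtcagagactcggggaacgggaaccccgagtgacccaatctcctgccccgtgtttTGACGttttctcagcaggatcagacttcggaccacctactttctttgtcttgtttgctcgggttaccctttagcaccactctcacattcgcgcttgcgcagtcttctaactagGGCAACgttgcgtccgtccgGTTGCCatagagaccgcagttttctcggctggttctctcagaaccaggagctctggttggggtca
Akap4 (chrX:7067265-7067564, + strand): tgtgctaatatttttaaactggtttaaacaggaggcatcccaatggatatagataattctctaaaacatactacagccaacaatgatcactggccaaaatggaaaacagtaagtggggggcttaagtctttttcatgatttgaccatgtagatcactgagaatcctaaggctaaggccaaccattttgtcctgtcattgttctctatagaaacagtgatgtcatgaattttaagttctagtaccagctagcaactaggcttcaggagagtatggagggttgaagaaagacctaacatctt
Smcp (chr3:92589024-92589323, - strand): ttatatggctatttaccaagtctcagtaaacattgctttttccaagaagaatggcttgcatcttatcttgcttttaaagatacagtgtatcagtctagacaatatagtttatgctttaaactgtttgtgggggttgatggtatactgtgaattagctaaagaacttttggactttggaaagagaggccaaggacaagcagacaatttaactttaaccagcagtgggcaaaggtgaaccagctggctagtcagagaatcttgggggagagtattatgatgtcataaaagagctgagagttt

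The Spag16 window holds GGCAAC and GTTGCC, at bases −111 and −103 from the start, the Tekt1 window holds the same pair at −35 and −15 and TGACG at −148, and the Ropn1l window holds GTTGCC at −20. The RFX half-site stood in 9 of 32 members' windows (28.1%), against 14.1% of the 27025 genes in the promoter table. The 9 were Ropn1l, Cfap44, Spag6, Spag16, Tekt1, Tekt2, Tekt4, Hydin and Drc1, of which 8 are among the 20 axoneme genes with a window (40.0%). TGACG or its reverse complement CGTCA stood in 4 of 32 windows (12.5%), those of Odf2, Fsip2, Tekt1 and Catsper2, against 23.0% of genes. The full CRE, TGACGTCA, which contains TGACG, stood in 0 of 32 windows, against 2.03% of genes. These matches are descriptions of letters in these windows.

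At 2 months prKO testes held less RNA of most flagellum genes than WT testes. Of 36 genes 30 were called lower and 1 higher, against 22.4% of all genes called lower and 26.0% called higher. The median difference was −0.40 over the flagellum genes and 0.02 over all genes. All 7 fibrous sheath genes and all 4 channel genes were called lower, with medians of −0.92 and −0.96. In the dense fibre and capsule class 4 of 5 were called lower (median −0.58), and in the axoneme class 15 of 20 (median −0.35). Without prKO replicate 3 the calls drop to 19, and Fsip2, Dnah1, Cfap44, Cfap70, Spag16, Spag17, Tekt1, Tekt2, Tekt3, Drc1, Ccdc40 and Qrich2 lose theirs. Without prKO replicate 1, the array with Adam7, there were 28 calls.

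Among fibrous sheath genes, Akap4 was at 10.89, 10.28 and 11.09 in prKO testes, against 11.90 to 12.08 with a median of 12 in WT testes. It was 2.37-fold lower (−1.25 ± 0.12, adjusted p = 1.9e-07), and no prKO array reached the WT range. Ropn1, which docks on the sheath anchors, was at 10.35, 9.47 and 10.33, against 10.90 to 11.20 with a median of 11.02 in WT testes. Its difference was −0.99 ± 0.13 (adjusted p = 4.5e-06), with replicate 2 the lowest. Akap3 was at 11.08, 10.20 and 10.79 in prKO testes, against 11.47 to 11.72 in WT testes, and was 1.90-fold lower (adjusted p = 2.4e-06). Cabyr, a calcium-binding sheath protein, differed by −0.92, Spa17 by −0.56, the ropporin-like Ropn1l by −0.34 and Fsip2, a large protein that interacts with the sheath, by −0.33.

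Oaz3 was at 10.62, 9.96 and 10.69 in prKO testes, against 11.42 to 11.75 with a median of 11.62 in WT testes (−1.19 ± 0.13, 2.27-fold lower, adjusted p = 7.3e-07). Smcp was at 11.82, 11.26 and 11.78 in prKO testes, against 12.33 to 12.66 in WT testes (−0.91). Both genes were below the WT range in all 3 prKO arrays. Odf2, a dense fibre scaffold protein, varied least among prKO arrays of these genes, with 10.83, 10.78 and 10.77, against 11.24 to 11.53 in WT testes (−0.58). Odf4 differed by −0.38. Odf1 was the single gene called higher: its brighter probe set gave 9.86, 10.12 and 10.28 in prKO testes, against 9.44 to 9.80 in WT testes (0.46, adjusted p = 0.00057). Its second probe set gave 10.40, 9.93 and 10.63 in prKO testes, against 11.30 to 11.67 in WT testes, and was called lower (−1.13 ± 0.12, 2.19-fold, adjusted p = 3e-07).

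The CatSper pore subunits fell in prKO testes with a wide spread. Catsper4 was at 8.94, 7.97 and 7.99 in prKO testes, against 8.95 to 9.76 with a median of 9.41 in WT testes (−1.10 ± 0.24, 2.15-fold lower, adjusted p = 0.00085). Catsper3 was at 8.66, 7.55 and 8.12 in prKO testes, against 8.81 to 9.28 with a median of 9.21 in WT testes (−1.0 ± 0.19, 2.01-fold lower, adjusted p = 0.00021). Replicate 1 was nearest to the WT range for both. Catsper1 was at 9.56, 8.25 and 9.04 in prKO testes, against 9.67 to 10.10 in WT testes (−0.92), and Catsper2 differed by −0.43.

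The axoneme genes changed less, and 3 genes with the largest differences are given first. Tekt5, a tektin of the doublet lumen, was at 9.21, 9.01 and 9.29 in prKO testes, against 9.73 to 10.21 in WT testes (−0.83). Cfap69, a tail protein whose loss in mouse gives malformed flagella, was at 10.06, 9.94 and 9.73 in prKO testes, against 10.39 to 10.62 in WT testes (−0.60), and Hydin, a central apparatus protein, was at 9.93, 9.99 and 9.63, against 10.15 to 10.55 in WT testes (−0.55). All 3 genes stayed below the WT range on every prKO array. So did Cfap43 (at most 10.25 in prKO testes, at least 10.41 in WT testes) and Spag17 (at most 10.90, at least 10.94). The other called genes had differences between −0.45 and −0.23. They were Ccdc40, the partner of Ccdc39 in spacing the axoneme repeats (mean 8.15 in prKO and 8.60 in WT testes), the flagellar genes Cfap43, Cfap44 (9.62 and 9.94) and Cfap70 (10.48 and 10.79), the inner-arm dynein Dnah1, the central apparatus genes Spag16 and Spag17, the nexin-dynein regulator Drc1 (8.67 and 8.99), the tektins Tekt1, Tekt2 and Tekt3 (8.87 and 9.28), and Qrich2 (11.01 and 11.23). For Spag16 the low value came from 1 array: 9.55, 9.68 and 8.94 in prKO testes, against 9.64 to 10.04 in WT testes. The 5 axoneme genes without a call were Tekt4 (−0.38, adjusted p = 0.065), the outer-arm dyneins Dnah17 (−0.25, adjusted p = 0.088) and Dnah8 (0.13), Cfap65 (−0.10) and Spag6 (0.03).

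**Figure D1:**
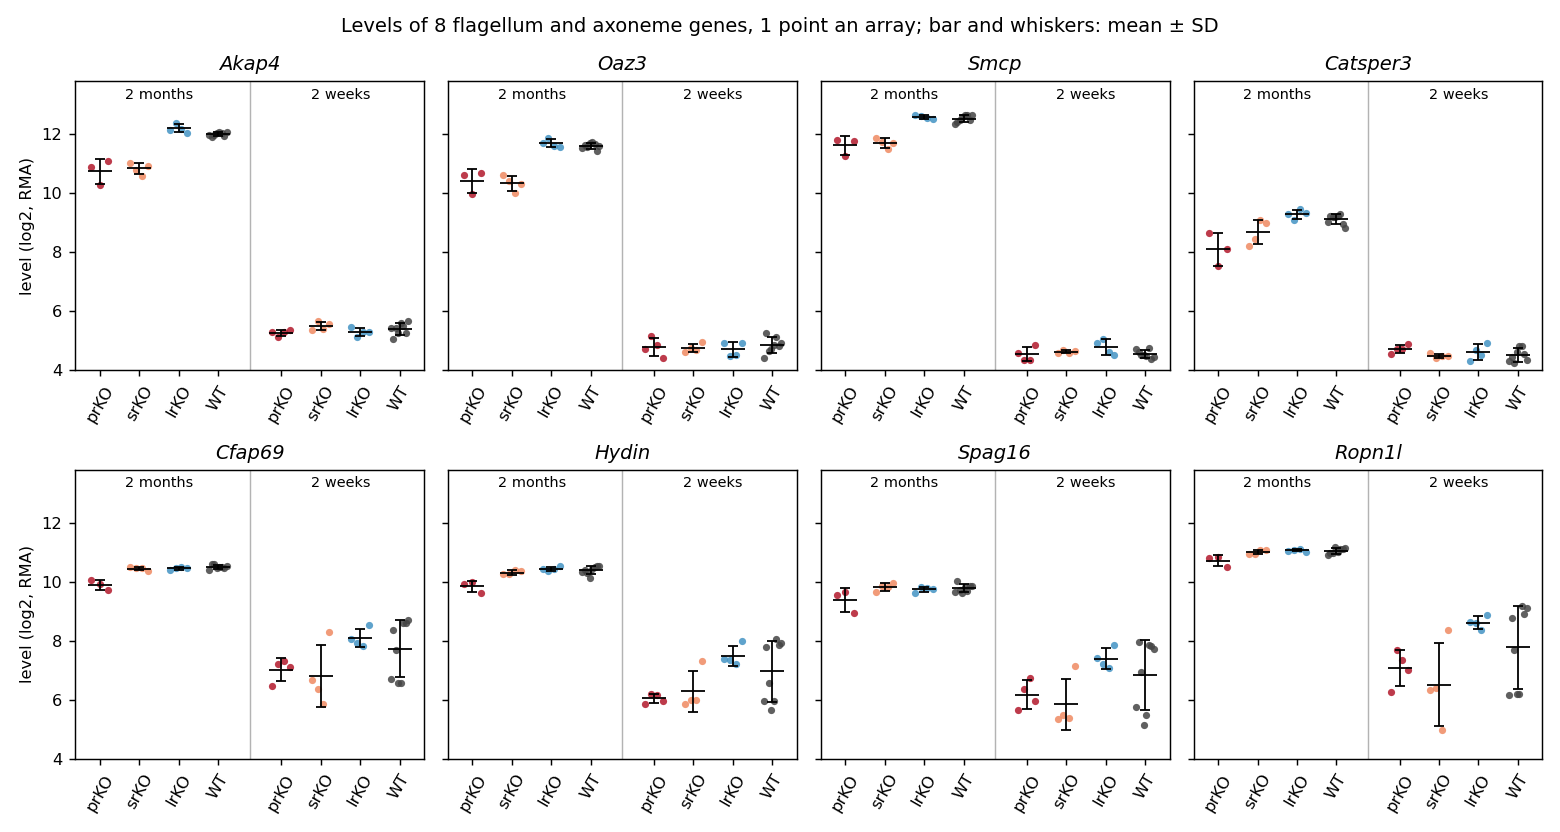
Log2 intensity of 8 flagellum genes on every array, at 2 months in the left panel of each gene and at 2 weeks in the right, with groups in the order prKO, srKO, lrKO and WT; points are arrays and bars the mean ± SD (n = 3 or 4 per line, 8 WT). At 2 months Akap4 and Oaz3 were below the WT range on all prKO and srKO arrays, Cfap69 and Hydin on all prKO arrays and at most 1 srKO array, and at 2 weeks the WT arrays of Hydin and Spag16 spread over more than 2 log2 units.

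At 2 months srKO testes showed a narrower set of lower genes. Of 36 genes 11 were called lower and 1 higher, against 10.8% of all genes called lower and 14.7% called higher. The median difference was −0.06 over the flagellum genes and 0.03 over all genes. The calls were 5 of 7 in the fibrous sheath (median −0.45), 3 of 5 in the dense fibre and capsule class (−0.54), 1 of 4 in the channel (−0.42) and 2 lower and 1 higher of 20 in the axoneme (−0.01). The share called lower in the axoneme class is near the share of all genes. With the WT replicates 5 to 8 alone there were 8 calls.

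Oaz3 had the largest fall, with 10.62, 10.40, 10.01 and 10.32 in srKO testes, against 11.42 to 11.75 with a median of 11.62 in WT testes (−1.27 ± 0.12, 2.42-fold lower, adjusted p = 3.7e-07). Akap4 was at 11.04, 10.79, 10.60 and 10.92 in srKO testes, against 11.90 to 12.08 in WT testes (−1.16 ± 0.11, 2.23-fold lower, adjusted p = 4.8e-07). Smcp was at 11.87, 11.72, 11.49 and 11.71 in srKO testes, against 12.33 to 12.66 in WT testes (−0.83 ± 0.10, adjusted p = 3.5e-06). All 12 of these srKO values were below the lowest WT array of their gene, and the share of all genes separated so was not counted. Ropn1 was at 10.30, 10.37, 10.16 and 10.29 in srKO testes, against 10.90 to 11.20 in WT testes (−0.77, adjusted p = 7e-05). Tekt5 was at 9.56, 9.67, 9.07 and 9.34, against 9.73 to 10.21 in WT testes (−0.59, adjusted p = 0.00026), and Odf2 at 10.84, 10.77, 10.89 and 10.83, against 11.24 to 11.53 in WT testes (−0.54, adjusted p = 6.8e-06). Neither gene overlapped the WT range in srKO testes.

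The remaining srKO calls were smaller. Akap3 differed by −0.54, Catsper1 by −0.53 (adjusted p = 0.035), Cabyr by −0.45 (adjusted p = 0.023), Spa17 by −0.39 and Tekt2 by −0.35 (adjusted p = 0.035). The Catsper1 call is lost without srKO replicate 1 or replicate 2, which were the low arrays, at 8.93 and 9.05, with replicates 3 and 4 at 9.68 and 9.72. Without either of these replicates the calls of Cabyr and Tekt2 are lost too, and that of Tekt2 also without WT replicate 2, 3 or 4. The Catsper1 call is lost without WT replicate 1, 4 or 6. With WT replicates 5 to 8 alone none of Catsper1, Cabyr and Tekt2 is called. Catsper3 and Catsper4 split in the same way, at 8.22 and 8.45 against 9.08 and 9.0, and at 8.84 and 8.19 against 9.69 and 9.21, and were not called (−0.43, adjusted p = 0.073, and −0.42, adjusted p = 0.18). Cfap65, a flagellar protein, was called higher, with 11.30, 11.29, 11.56 and 11.39 in srKO testes, against 10.95 to 11.28 in WT testes (0.28, adjusted p = 0.024). That call is lost without srKO replicate 3 or 4, with WT replicates 5 to 8 alone and with each array centred on its median. Odf1 differed by 0.07 on its brighter probe set and by −0.84 on its second, where srKO testes gave 10.85, 10.68, 10.39 and 10.55, against 11.30 to 11.67 in WT testes. Spag6 was not called on its brighter probe set (0.07) and was called lower on its second (−0.30, adjusted p = 0.016).

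**Figure D2:**
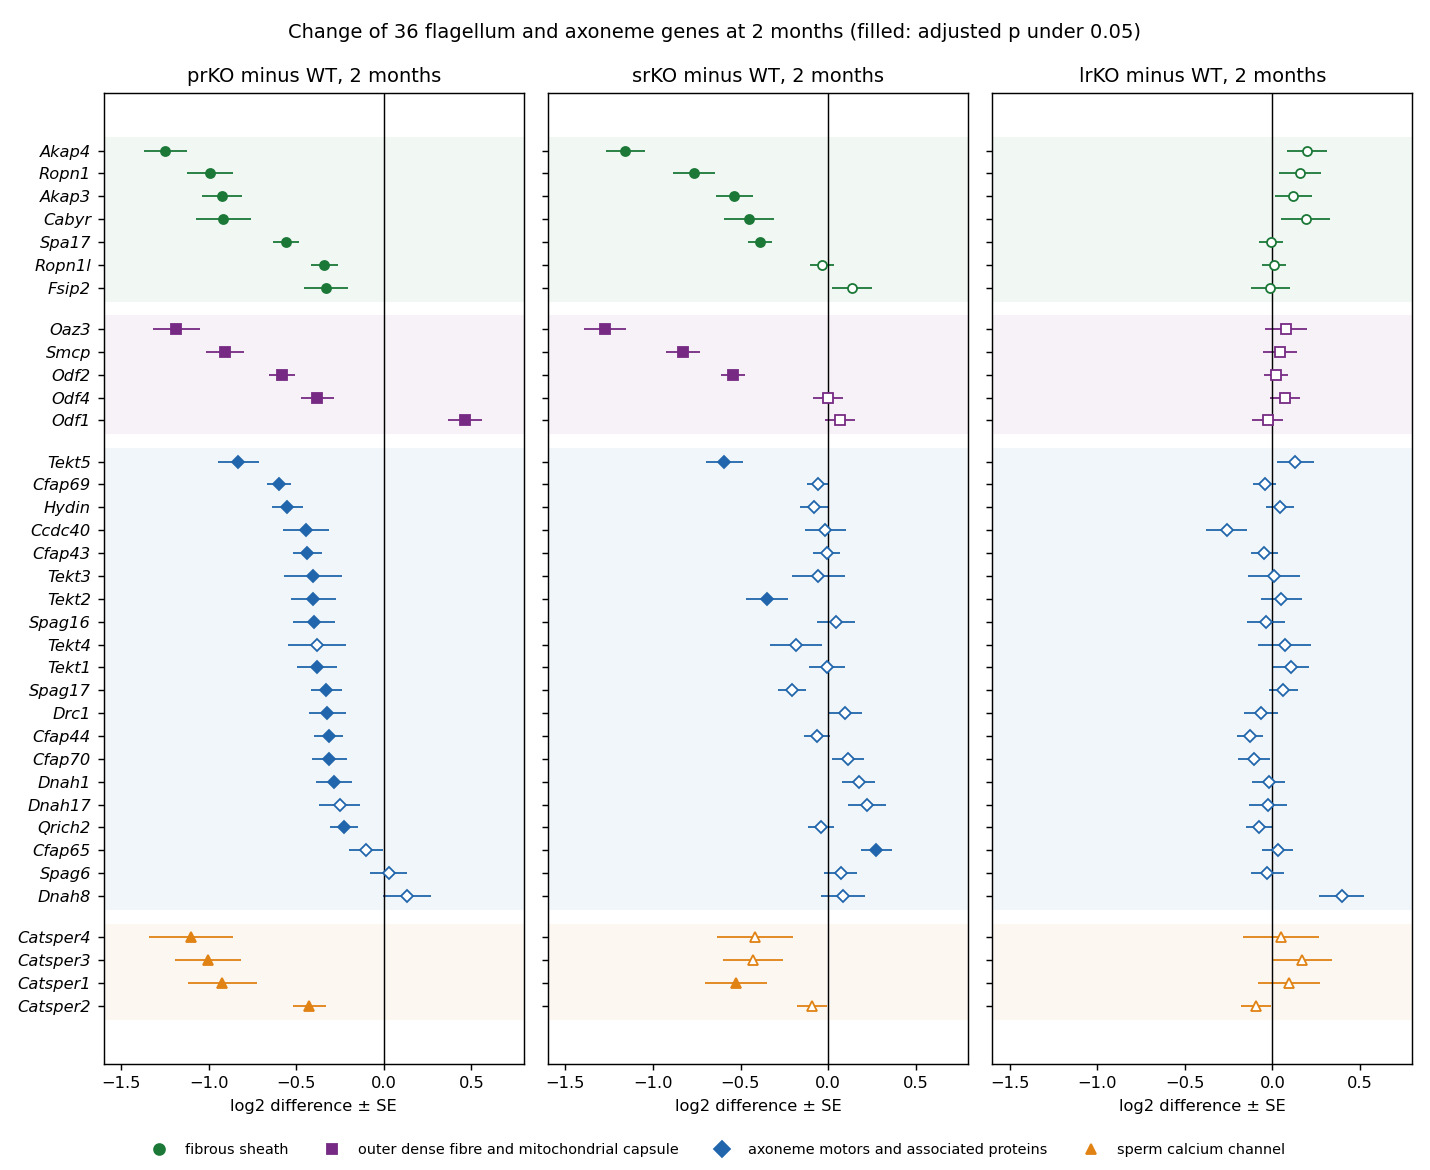
Log2 difference from WT at 2 months of the 36 flagellum genes, grouped by class, in prKO, srKO and lrKO testes; points are limma estimates, bars ± SE, and filled points have an adjusted p under 0.05. In prKO testes 30 genes lie filled below 0, in srKO testes 11, mainly in the fibrous sheath and capsule classes, and in lrKO testes none is filled.

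The 2 lines were compared directly at 2 months, since a call in one line and not in the other does not test their difference. In prKO relative to srKO testes 16 genes were called lower and 1 higher, against 12.1% of all genes called lower and 13.4% called higher, with a median of −0.36 over the flagellum genes and 0.01 over all genes. Of the 16 lower genes 11 were axoneme genes (of 20, median −0.38), 3 fibrous sheath genes (of 7, −0.31), 1 dense fibre gene (of 5, −0.04) and 1 channel gene (of 4, −0.49). Cfap69 had the clearest difference, with 10.06, 9.94 and 9.73 in prKO testes, against 10.49, 10.46, 10.48 and 10.37 in srKO testes (−0.54 ± 0.08, adjusted p = 0.0002). Hydin was at 9.93, 9.99 and 9.63 in prKO testes, against 10.26, 10.26, 10.41 and 10.36 in srKO testes (−0.47, adjusted p = 0.0027). Neither gene overlapped between the lines. Dnah17 (−0.48, adjusted p = 0.014), Fsip2 (−0.47, adjusted p = 0.02), Dnah1 (−0.46, adjusted p = 0.0073) and Spag16 (−0.44, adjusted p = 0.022) were also called lower. Odf1 was called higher by 0.39, and on its second probe set the difference was −0.30 (adjusted p = 0.11). For Akap4, Oaz3 and Smcp, the prKO and srKO values above overlap. The count rests on few arrays: it was 3 without prKO replicate 3, 10 without srKO replicate 3 and 1 when only the prKO and srKO arrays entered the fit.

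Both lines were also compared with lrKO testes at 2 months. In prKO relative to lrKO testes 22 genes were called lower and 1 higher, against 20.1% and 25.4% of all genes, with a median of −0.43 over the flagellum genes and 0.04 over all genes. By class, 6 of 7 sheath genes, 4 of 5 dense fibre and capsule genes, 8 of 20 axoneme genes and 4 of 4 channel genes were lower. The largest differences were those of Akap4 (−1.45), Oaz3 (−1.26), Catsper3 (−1.18), Catsper4 (−1.15), Ropn1 (−1.15) and Cabyr (−1.11). Odf1 was the gene called higher (0.49), with −1.23 on its second probe set. In srKO relative to lrKO testes 13 genes were called lower and none higher, against 11.2% of all genes called lower, with a median of −0.09 over the flagellum genes and 0.05 over all genes. By class, 5 of 7 sheath genes, 3 of 5 dense fibre and capsule genes, 3 of 20 axoneme genes and 2 of 4 channel genes were lower. Akap4 differed by −1.36, Oaz3 by −1.35, Ropn1 by −0.92, Smcp by −0.87, Tekt5 by −0.72 and Akap3 by −0.66. The comparisons with lrKO and with WT share their prKO or srKO arrays and are not independent of each other.

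In lrKO testes no flagellum gene was called at 2 months by limma, where 0.184% of all genes were called in either direction. At an unadjusted p under 0.05, 1 member was higher and 1 lower, and 8.28% of all genes passed. The class medians were 0.12 for the sheath, 0.05 for dense fibre and capsule, −0.02 for the axoneme and 0.07 for the channel. Akap4 was at 12.15, 12.39, 12.19 and 12.05 in lrKO testes, against 11.90 to 12.08 in WT testes (0.20, adjusted p = 0.68). Oaz3 was at 11.69, 11.88, 11.60 and 11.58 in lrKO testes, against 11.42 to 11.75 in WT testes. The largest differences were those of Dnah8 (0.40, adjusted p = 0.34) and Ccdc40 (−0.26, adjusted p = 0.59).

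**Figure D3:**
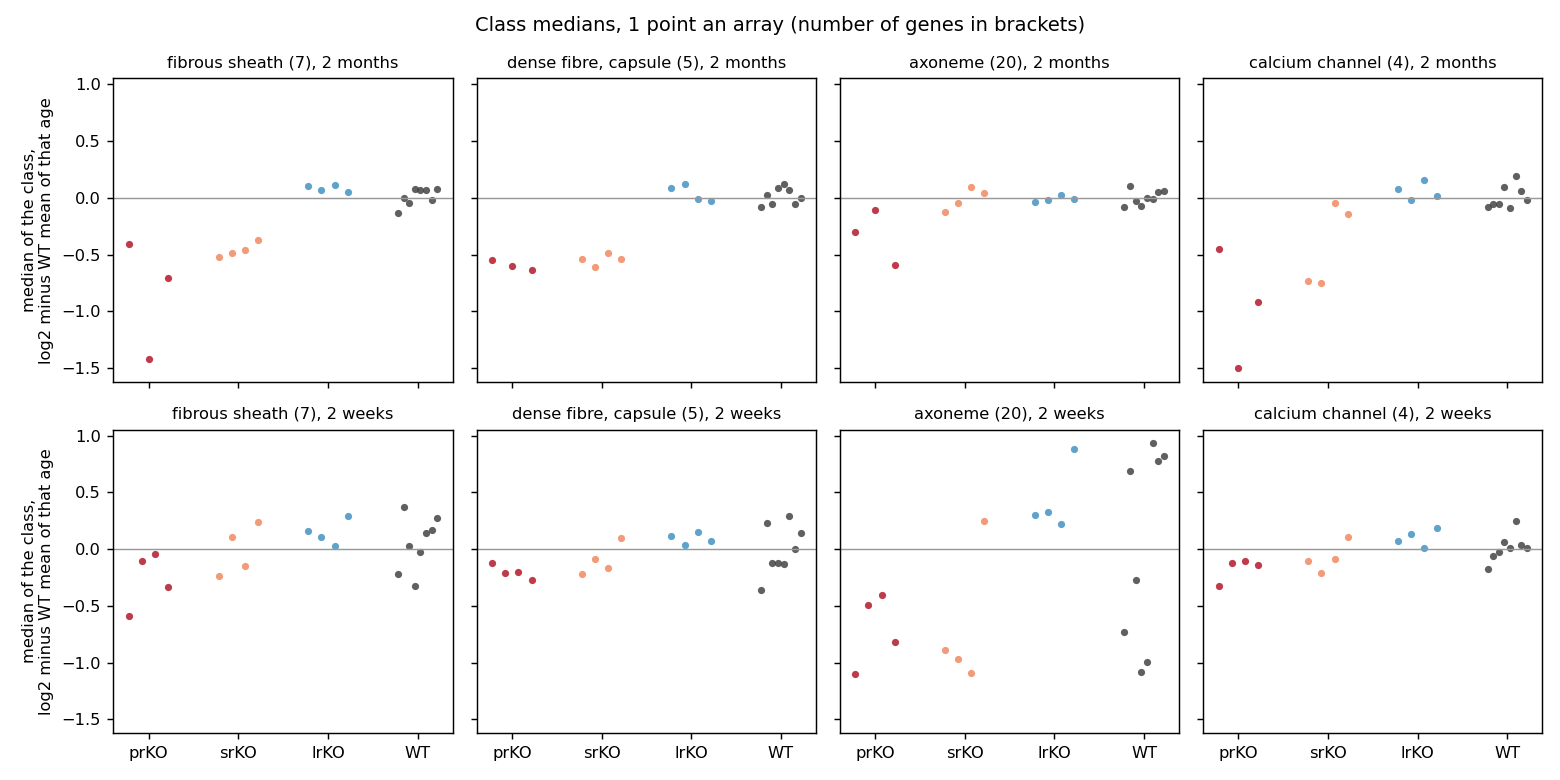
Median over the genes of each class on each array, as the log2 difference from the mean of the WT arrays of that age, at 2 months in the top row and at 2 weeks in the bottom row. At 2 months the sheath medians were −0.40, −1.42 and −0.71 on prKO arrays, between −0.52 and −0.37 on srKO arrays and between −0.14 and 0.08 on WT arrays, and at 2 weeks the axoneme medians of WT arrays ran from −1.09 to 0.93.

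The class medians on single arrays show which arrays carry these differences. In the fibrous sheath they were −0.40, −1.42 and −0.71 on prKO arrays of 2 months and −0.52, −0.48, −0.46 and −0.37 on srKO arrays, against −0.14 to 0.08 on WT arrays. In the channel class they were −0.45, −1.50 and −0.91 on prKO arrays and −0.73, −0.75, −0.04 and −0.14 on srKO arrays, against −0.08 to 0.20 on WT arrays. In the dense fibre and capsule class they were −0.55, −0.60 and −0.63 on prKO arrays and between −0.60 and −0.49 on srKO arrays, against −0.08 to 0.12 on WT arrays. In the axoneme class they were −0.30, −0.11 and −0.59 on prKO arrays and −0.13, −0.05, 0.10 and 0.04 on srKO arrays, against −0.08 to 0.10 on WT arrays. The prKO replicate 2 was the lowest for the sheath and the channel, and replicate 3 the lowest for the axoneme.

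At 2 weeks no flagellum gene was called in any line by limma. In prKO testes 10.5% of all genes were called in either direction, and at an unadjusted p under 0.05 the flagellum genes numbered 1 higher and 7 lower, when 26.2% of all genes passed. The medians were −0.43 for the flagellum genes and −0.01 for all genes, and 31 of 36 genes lay below 0. Cfap43 (−1.14, adjusted p = 0.11) and Dnah17 (−1.05, adjusted p = 0.11) had the largest differences. In srKO testes 0.873% of all genes were called, 4 members were lower at an unadjusted p under 0.05, when 15.0% of all genes passed, and the median was −0.46, with Fsip2 at −1.56 (adjusted p = 0.22) and Ropn1l at −1.26 (adjusted p = 0.35). In lrKO testes 0.100% of all genes were called, 4 members were higher at an unadjusted p under 0.05, when 9.02% of all genes passed, and the median was 0.28, with Dnah8 at 1.64 (adjusted p = 0.47) and Spag17 at 1.40 (adjusted p = 0.48). In the prKO comparison 8 genes were called lower when WT replicates 5 to 8 alone were used, and none with WT replicates 1 to 4 alone. The share of all genes called in those fits was not counted.

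These 2-week differences stand beside a wide spread among WT arrays of the axoneme genes. The SD among the 8 WT arrays had a median of 0.92 over the 20 axoneme genes and 0.17 over all genes, whereas at 2 months the medians were 0.13 and 0.14. Cfap65 was at 7.17, 9.52, 8.30, 6.35, 6.52, 9.90, 9.73 and 9.86 in WT replicates 1 to 8 at 2 weeks, an 11.7-fold range, and Dnah8, a dynein of the outer arm, ranged 11.6-fold. Smcp and Akap4 ranged 1.31-fold and 1.52-fold on the same arrays, but their means there, 4.57 and 5.41, were near the bottom of the scale, where a small range is no sign of a steady level. The axoneme medians of WT replicates 1 to 8 were −0.73, 0.69, −0.27, −1.09, −0.99, 0.93, 0.78 and 0.82. Replicates 2, 6, 7 and 8 were high and replicates 1, 4 and 5 low. The prKO medians were −1.10, −0.49, −0.41 and −0.82, the srKO medians −0.89, −0.97, −1.09 and 0.24, and the lrKO medians 0.30, 0.33, 0.22 and 0.88, so all lay within the WT range or, for prKO replicate 1 and srKO replicate 3, just below its lowest array. A list of 18 meiotic prophase genes had medians of −0.22, 0.12, 0.02, −0.46, −0.11, 0.17, 0.24 and 0.22 on the same WT arrays. As for the axoneme genes, replicates 2, 6, 7 and 8 were high and replicates 1, 4 and 5 low. The meiotic list was lowest on replicate 4, where the list of peritubular myoid genes was at 1.53. The part of these cell types in the spread was not tested.

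Of the 11 genes called lower in srKO testes at 2 months, 1 was among those that varied most among WT testes at 2 weeks. With the members divided at an SD of 0.4, a limit chosen after the values were seen, 19 genes varied more, among them Spa17 (0.54) as the first above it, and 17 varied less, among them Odf2 (0.37) as the first below it. Of the 19, 16 were called lower in prKO testes of 2 months (median −0.33) and 1 lower and 1 higher in srKO testes (median −0.01). Of the 17, 14 were called lower and 1 higher in prKO testes (median −0.91) and 10 lower in srKO testes (median −0.45). The WT means at 2 weeks were between 6.04 and 9.91 (median 7.02) for the 19 genes and between 4.51 and 10.0 (median 5.31) for the 17. A gene near the bottom of the scale at 2 weeks can show little spread, so the division also follows the level at 2 weeks.

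**Figure D4:**
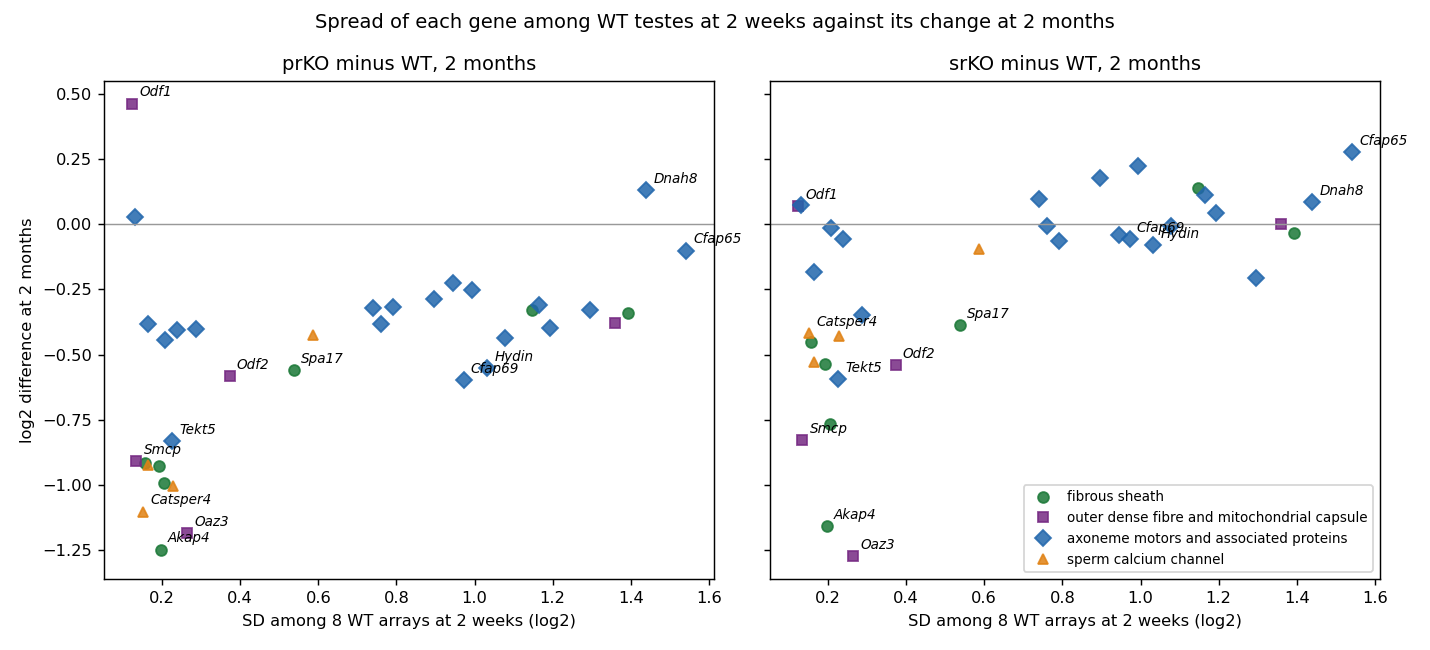
SD of each flagellum gene among the 8 WT arrays of 2 weeks (x axis, log2 units) against its log2 difference from WT at 2 months (y axis) in prKO testes in the left panel and srKO testes in the right, with genes marked by class. In srKO testes the genes with an SD above 0.4 have a median difference of −0.01 and those with at most 0.4 a median of −0.45, with lower WT levels at 2 weeks (median 5.31, against 7.02).

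Whether a line's change differed between ages was tested directly, as the change at 2 months minus the change at 2 weeks. In prKO testes 10 genes had a lower change at 2 months, against 12.3% of all genes: Ropn1 (−1.22, adjusted p = 4.7e-06), Catsper3 (−1.21), Oaz3 (−1.13), Akap4 (−1.12, adjusted p = 1.4e-06), Cabyr (−1.08), Catsper4 (−1.01), Smcp, Akap3, Tekt5 and Catsper1. In srKO testes 7 genes did, against 8.76% of all genes: Akap4 (−1.27, adjusted p = 1.3e-07), Oaz3 (−1.18, adjusted p = 3e-05), Smcp (−0.90), Ropn1 (−0.81), Cabyr (−0.62), Tekt5 (−0.55) and Akap3. In the 4 groups of 2 weeks the means of these genes were between 4.25 and 5.75, near the bottom of the scale, so a fall at 2 weeks could hardly show and the contrast adds little to the fall at 2 months. No member was called with a higher change at 2 months in either line. Both lists hold 1 axoneme gene, Tekt5. Without srKO replicate 4 of 2 weeks, the srKO comparison had 13 calls, 7 of them with a higher change at 2 months. The share of all genes called in that fit was not counted. In lrKO testes no member was called by limma, against 0.100% of all genes. At an unadjusted p under 0.05, 1 member had a lower change, when 6.96% of all genes passed. The largest values were those of Spag17 (−1.33, adjusted p = 0.67) and Dnah8 (−1.25, adjusted p = 0.77).

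Other sperm tail genes were counted in the same fits at 2 months. Those fits called 22.4% of all genes lower and 26.0% higher in prKO testes, and 10.8% and 14.7% in srKO testes. Of 37 other axoneme genes 27 were called lower in prKO testes (median −0.38) and 3 in srKO testes (median −0.07). The srKO share, 8.11%, was below that of all genes. In WT testes all 37 other axoneme genes rose with age. Among them Cfap100 differed by −0.93 in prKO and −0.43 in srKO testes, Ttc21a by −0.70 and Cfap221 by −0.65 in prKO testes, and Ttc29 (4.41) and Cfap58 (4.32) rose most with age. Of 16 other accessory structure genes 15 were lower in prKO testes (median −0.78) and 11 in srKO testes (median −0.69). They include Spata18 (−1.72 in prKO, −1.51 in srKO testes), Fscb, a fibrous sheath protein that binds Cabyr (−1.57 and −1.27), and Cabs1 (−1.44 and −1.59). Gapdhs, the glycolytic enzyme bound to the sheath, was higher by 6.86 with age in WT testes, Cabs1 by 6.82 and Pgk2 by 6.69. Of 16 other channel and exchanger genes 14 were lower and 1 higher in prKO testes (median −0.47), and 5 lower and 1 higher in srKO testes (median 0.04). Atp1a4, the sperm sodium pump, differed by −0.96 in prKO and −0.94 in srKO testes and was higher by 6.02 with age in WT testes. Adcy10, the soluble adenylyl cyclase, differed by −0.91 in prKO testes and Lrrc52, a partner of a sperm potassium channel, by −0.85, while Lrrc52 differed by −0.63 and the CatSper partner Efcab9 by −0.47 in srKO testes.

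Of 13 regulators of spermatid and cilium genes 12 were called lower in prKO testes (median −0.47) and 4 in srKO testes (median −0.10). The shares of all genes called lower were 22.4% and 10.8%. Rfx3, an RFX factor, differed by −0.98 in prKO and −0.59 in srKO testes, Fhl5, a CREM coactivator, by −0.82 and −0.97, Sox30, a factor of the round spermatid program, by −0.78 in prKO testes, and Crem by −0.46 in srKO testes. Rfx2 ranged between 7.70 and 9.49 among WT testes of 2 weeks.

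Marker lists of other cell types were counted in both lines at 2 months, and their part in the flagellum results was not tested. Of all genes 22.4% were called lower and 26.0% higher in prKO testes, and 10.8% and 14.7% in srKO testes. Of 19 spermatid genes 18 were called lower in prKO testes (median −1.01) and 13 in srKO testes (median −0.73), with array medians between −1.53 and −0.66 on prKO, between −0.97 and −0.60 on srKO and between −0.23 and 0.18 on WT arrays. Tssk6, a spermatid kinase, differed by −2.05 in prKO and −2.23 in srKO testes, Prm1, the protamine, by −1.53 and −2.33, Spem1 by −1.40 in prKO testes and Tnp1, a transition protein, by −1.89 in srKO testes. Of 18 meiotic prophase genes 11 were lower in prKO testes (median −0.42; Dmc1 −0.85, Hormad1 −0.73, Rec8 −0.72), whereas 2 were higher and 1 lower in srKO testes. Array medians of the meiotic list were between −0.53 and −0.21 on prKO, between −0.16 and 0.18 on srKO and between −0.08 and 0.08 on WT arrays. Of 15 spermatogonia genes 4 were higher and 6 lower in prKO testes, and 1 was lower in srKO testes. The 26.7% called higher in prKO testes is near the share of all genes. In srKO testes neither the meiotic nor the spermatogonia list exceeded the shares of all genes in either direction.

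Most called somatic markers were higher on those arrays. Over all genes 26.0% were called higher and 22.4% lower in prKO testes, and 14.7% and 10.8% in srKO testes. The Sertoli cell list had 15 tested genes, 9 higher and 2 lower in prKO testes (median 0.52) and 5 higher and 2 lower in srKO testes (median 0.22). Inha, an inhibin subunit, was higher by 1.39 in prKO and 1.36 in srKO testes, Cldn11 by 0.99 in prKO testes, and Fshr differed by −1.09 in srKO testes. Of 8 Leydig cell genes 5 were higher and 1 lower in both lines (median 1.36 in prKO, 0.79 in srKO testes), with Star higher by 2.22 and Hsd3b6 lower (−3.15) in prKO testes. Of 10 macrophage genes 9 were higher in prKO (median 1.00) and 8 in srKO testes (median 0.75), with Lyz2 higher by 2.42 and 1.32 and Cd163 by 1.52 in prKO testes. Of 7 peritubular myoid genes 4 were higher and 1 lower in prKO testes, and 2 higher and 1 lower in srKO testes. Array medians of the macrophage list were between 0.61 and 1.32 on prKO, between 0.55 and 1.13 on srKO and between −0.13 and 0.07 on WT arrays.

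Ciliated cells of the efferent ducts, which could be dissected with the testis, share axoneme genes with sperm. Of 11 such genes tested 1 was higher and 4 lower in prKO testes, against 26.0% and 22.4% of all genes. In srKO testes 3 were lower, against 10.8% of all genes. In WT testes 8 of the 11 were called higher with age, by up to 4.47, and 1 lower, against 26.7% and 55.0% of all genes. Duct cells and germ cells therefore cannot be told apart by this list. Rsph4a and Sntn, 2 of the 13 listed, were below the filter on dim genes in every group. Of 7 epididymis genes tested 1 was higher and 1 lower in prKO and 0 in srKO testes, and 3 of the 10 on the array were below the filter in every group. Array medians of the duct list were between −0.32 and −0.13 on prKO, between −0.39 and 0.05 on srKO and between −0.17 and 0.17 on WT arrays. In lrKO testes no gene of these lists was called at 2 months, with the exception of 2 Leydig cell genes and 1 Sertoli cell gene, all lower.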

How the data were processed

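RNA of 39 whole mouse testes was hybridised as biotin-labelled cDNA. The deposited table holds log2 intensities of 41345 probe sets that the authors normalized with RMA, per the submitters' processing notes. The sources used here give neither the version of RMA nor the array's genome build. The annotation ties 23521 probe sets to 1 gene, 1814 to several and 16010 to none. For the 1082 of 22180 genes with several probe sets the brightest one (highest mean of the 39 arrays) was taken. Genes with a mean above the 25th percentile of all values (4.62) in at least 1 of the 8 groups were kept, which left 19007 genes. The values lay between 2.54 and 13.6, and 0 pairs of arrays were identical. Precision is limited by the number of arrays.

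Groups were taken from the sample titles. limma 3.58.1 (lmFit and eBayes, R 4.3.3) was fitted to the 4 genotypes of an age, and to all 8 groups for contrasts of the ages. P-values are two-sided and were adjusted over the 19007 genes by Benjamini-Hochberg, with 0.05 as the threshold. The procedure was tested on simulated data. Values after ± are standard errors of a log2 difference unless named as SD. A gene list is described by its counts and median, with no test of its own.

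The members, the companion lists and the marker lists were chosen with earlier results of these data known. Every member is named, with the 6 members of largest change among those called in each comparison, the 2 largest where none was called, and up to 3 genes of each companion list per comparison. Alternatives were the filter, the choice of probe set, quantile normalization, centring, array weights, the arrays in the fit, the replicate number as a block, parts of the WT arrays and leaving out each array.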

Additional observations from a re-analysis of the deposited data

Results flagged for a closer look

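A single array lay far from the others of its group in 15 of 259 sets of values (5.79%), and chance gives about 1 in 20. The prKO group of 2 months, with 3 arrays, was too small for this check and was left out. At 2 weeks these were lrKO replicate 4, the highest for Odf4 (8.36, nearest 7.59), Cfap43 (7.91, nearest 7.41), Cfap65 (9.90, nearest 9.20), Cfap70 (8.61, nearest 7.78) and Spag17 (8.67, nearest 7.54). The srKO replicate 4 was the highest for Cfap70 (7.74, nearest 6.31), Spag16 (7.15, nearest 5.51) and Hydin (7.33, nearest 6.01). The prKO replicate 1 was the lowest for Fsip2 (5.82, nearest 7.01) and Catsper1 (4.06, nearest 4.31), and prKO replicate 2 the highest for Dnah17 (5.39, nearest 5.19). At 2 months they were lrKO replicate 1 for Fsip2 (10.38, nearest 10.58), lrKO replicate 3 for Cabyr (10.72, nearest 10.69) and Catsper4 (9.58, nearest 9.43), and WT replicate 1 for Cabyr (10.33, nearest 10.47).

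The change from WT differed between 2 months and 2 weeks by limma for the following genes, given as the change at 2 months minus the change at 2 weeks. In prKO testes the values were −1.22 for Ropn1, −1.21 for Catsper3, −1.13 for Oaz3, −1.12 for Akap4, −1.08 for Cabyr, −1.01 for Catsper4, −0.89 for Smcp, −0.72 for Akap3, −0.66 for Tekt5 and −0.66 for Catsper1. The targeted gene Prkar1a had 0.48 (adjusted p = 0.00088). In srKO testes the values were −1.27 for Akap4, −1.18 for Oaz3, −0.90 for Smcp, −0.81 for Ropn1, −0.62 for Cabyr, −0.55 for Tekt5 and −0.53 for Akap3. Prkar1a had 0.72 (adjusted p = 3.7e-06) in the arrays labelled srKO. The flagellum genes among these were near the bottom of the scale at 2 weeks, with group means between 4.25 and 5.75.

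The second probe set of Odf1, which the rule for probe sets leaves out, differed by −1.13 in prKO relative to WT testes at 2 months (adjusted p = 3e-07), where the brighter one differed by 0.46.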

How the results depend on the processing

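Of the called members, 17 of 31 kept their call under every alternative other than the second probe sets in prKO relative to WT at 2 months, 8 of 12 in srKO relative to WT, 1 of 17 in prKO relative to srKO, 19 of 23 in prKO relative to lrKO, 9 of 13 in srKO relative to lrKO and 34 of 35 in WT with age. Over all alternatives the calls numbered 19 to 33 for prKO and 8 to 14 for srKO relative to WT at 2 months, and 9 to 11 for the prKO change between ages. Leaving out each array gave 19 to 31 calls for prKO relative to WT at 2 months, 3 to 19 for prKO relative to srKO, 6 to 13 for the srKO change between ages and 0 to 2 for prKO at 2 weeks. With only the arrays of both lines in the fit, prKO relative to srKO had 1 call. At 2 weeks prKO had 1 call with centred arrays, 9 with array weights and 8 with WT replicates 5 to 8 alone, all lower. At 2 weeks srKO had 19 calls with array weights, all lower, and lrKO 1, higher, with WT replicates 1 to 4 alone. The srKO change between ages had 24 calls with array weights, 17 of them higher. The share of all genes called under each alternative was not counted, so these counts do not show a change particular to the flagellum genes. The causes were not tested.

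The replicate numbers do not pair the arrays: same-numbered arrays of a line and WT had correlations of their deviations between −0.62 and 0.34. With the replicate number as a block, there were 21 calls for prKO and 10 for srKO relative to WT at 2 months, 8 for prKO relative to srKO, and 1 for lrKO at 2 weeks.

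Odf1 turned its sign with the probe set. With the average of its probe sets the difference was −0.34 for prKO relative to WT at 2 months, −0.37 for prKO relative to lrKO and 2.86 for WT with age. With the second probe set, an alternative chosen after seeing the data, it was −1.13, −1.23 and 6.09, and −0.30 for prKO relative to srKO.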

Other observations

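The fibrous sheath anchors hold PKA, and both genes of the type II regulatory subunits of PKA differed at 2 months. Prkar2a was at 9.24, 8.82 and 9.41 in prKO testes and at 9.24, 9.03, 7.39 and 8.32 in srKO testes, against 10.45 to 11.13 with a median of 10.83 in WT testes. It was 3.14-fold lower in prKO (−1.65 ± 0.26, adjusted p = 3.8e-05) and 4.97-fold lower in srKO testes (−2.31 ± 0.24, adjusted p = 9.8e-07), and lrKO testes differed by −0.05. Prkar2b was at 9.20, 9.48 and 9.53 in prKO testes and at 8.50, 8.58, 8.35 and 8.40 in srKO testes, against 7.01 to 7.58 with a median of 7.08 in WT testes. It was 4.57-fold higher in prKO (2.19 ± 0.12, adjusted p = 3.2e-10) and 2.37-fold higher in srKO testes (adjusted p = 1.6e-07), and lrKO testes differed by 0.00. Neither gene overlapped between WT and either line at 2 months. Of the 8 PKA subunit genes tested, 3 were higher and 3 lower in prKO testes of 2 months, against 26.0% and 22.4% of all genes. In srKO testes 3 were higher and 2 lower, against 14.7% and 10.8% of all genes. Prkar2b was above the WT range at 2 weeks already. It lay between 10.18 and 10.40 in prKO and between 10.13 and 10.29 in srKO testes of 2 weeks, against 9.14 to 9.67 in WT testes. Prkar2a overlapped WT in both lines at 2 weeks.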
